A study of Mus musculus with 69 samples.

Results

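The clustered protocadherins are cell-surface adhesion proteins encoded by 3 adjacent gene arrays, alpha, beta and gamma, on mouse chromosome 18. Members were taken as all genes of the count table whose symbol begins with Pcdha, Pcdhb or Pcdhg followed by an isoform code, which gave 57 of 17634 genes. Of these, 14 belonged to the alpha array, 21 to the beta array and 22 to the gamma array. Pcdhb1 was not analysed here. In the mm10 build the alpha members spanned positions 36930184 to 37187661, the beta members 37294812 to 37524479 and the gamma members 37661793 to 37841873, all on the plus strand.

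Each member has its own promoter. For the variable members, promoter use in a neuron depends on the insulator protein CTCF and on DNA methylation. Single neurons are known to use different sets of these variable members. The proteins bind like to like between cells, so that the set on a neuron's surface contributes to self-recognition of its branches, to axon tiling and to synapse formation. The members at the 3′ end of the alpha and gamma arrays, called C-type (Pcdhac1, Pcdhac2, Pcdhgc3, Pcdhgc4 and Pcdhgc5), are known to be used more evenly by neurons of a type than the variable members.

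The data were 69 sequencing libraries of mRNA bound to HA-tagged ribosomes, from the cortex of mice 70 to 100 days old. In these RiboTag mice, cells that express Cre recombinase switch to an HA-tagged form of RPL22, a protein of the large ribosomal subunit, and an antibody to the tag then pulls down the ribosomes of those cells with their mRNA. The class was set by PV-Cre, active in fast-spiking interneurons that make parvalbumin but also in some deep-layer pyramidal cells, or by Camk2a-Cre, active in excitatory forebrain neurons. KO mice carried a loss of Fmr1, the gene silenced in fragile X syndrome, and WT mice did not; all groups carried the tagged ribosomal protein and a Cre driver, and the labels used here name no strain. Tissue came from primary visual cortex (V1) or primary somatosensory cortex (S1). There were 10 libraries in each of the groups PV KO V1, PV WT V1, PV KO S1 and PV WT S1, 6 in Camk2a KO V1, 8 in Camk2a WT V1, 7 in Camk2a KO S1 and 8 in Camk2a WT S1. They came from 37 animals, 32 of which gave both areas. Each PV group had 5 females and 5 males; females and males numbered 4 and 2 in Camk2a KO V1, 6 and 2 in Camk2a WT V1, 4 and 3 in Camk2a KO S1 and 6 and 2 in Camk2a WT S1.

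Library totals lay between 27.6 M and 49.1 M estimated counts (M, mega). Fmr1 had 6.38 to 16.05 CPM, the count scaled to a common library total, in the 33 KO libraries and 38.6 to 91.3 CPM in the 36 WT libraries, without overlap. The 12 markers of PV interneurons summed to between 12633 and 16061 CPM in PV libraries and to between 649 and 3088 CPM in Camk2a libraries. The 12 markers of excitatory neurons summed to between 1248 and 2477 CPM in PV libraries and to between 12551 and 15187 CPM in Camk2a libraries, and none of either list was at 0 in any library. Among Camk2a libraries, those of the WT animals C18 and C19 carried the most PV interneuron RNA (2291 to 3088 CPM), and the KO animal C3 carried 1253 CPM in V1 and 2360 CPM in S1. A score built from genes that differed between V1 and S1 in the other cell class put the S1 library above the V1 library in 3 of 32 animals, the opposite of the others (C24, P9 and P22), and the gap was small in P24. The S1 library of C24 was also the only library that the labels place in batch 2. Results that rest on these animals are given with and without them.

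Values of alpha and gamma members are uncertain in a particular way. Within each of these arrays every variable first exon is joined to the same downstream exons, which made up 48.6% to 54.9% of the longest transcript of an alpha member and 41.7% to 45.9% of that of a gamma member. Reads that lie wholly in those exons do not identify a member, and estimated counts can divide them between members; how it was done is not given in the sources used here. Beta members have no such shared downstream exons, though the exons of Pcdhb21 and Pcdhb22 overlap. The table holds a pair of genes under the symbol Pcdha11, named here upstream (ENSMUSG00000007440) and downstream (ENSMUSG00000102206) by their place in the array. Pcdhb21 and Pcdhb22 overlap on the same strand, and Pcdhgb8 is annotated as a polymorphic pseudogene.

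Levels per kilobase of transcript were led by C-type members. Averaged over all 69 libraries, Pcdhgc4 had 39.3 CPM per kilobase, Pcdhac2 35.7 and Pcdhgc5 27.9, while the fourth, Pcdhga3, had 5.52. Pcdhgc4 is required for the survival of many cortical interneurons in the mouse, and Pcdhac2 for the tiling of serotonergic axons. In the alpha array Pcdhac2 was followed by Pcdha12 at 5.25 CPM per kilobase and Pcdhac1 at 4.76, and the lowest were Pcdha8 at 0.132 and upstream Pcdha11 at 1.66. Pcdha8 ranged from 0 to 111 counts per library. The beta array was the most even, with Pcdhb17 at 4.47, Pcdhb20 at 4.44 and Pcdhb12 at 3.68 at its top and Pcdhb21 at 0.710 and Pcdhb4 at 0.821 at its bottom. In the gamma array Pcdhgb8 at 0.220 and Pcdhgb4 at 1.00 were lowest. Across the 8 groups, Pcdhgc5 averaged between 5.57 ± 0.66 and 8.45 ± 2.07 CPM per kilobase (SD) in the 4 PV groups, against 63.2 ± 9.8 in Camk2a KO V1, 56.0 ± 7.9 in Camk2a WT V1, 58.6 ± 12.4 in Camk2a KO S1 and 50.2 ± 9.4 in Camk2a WT S1; neighbours in the order of these 4 Camk2a groups lie within an SD of each other. Pcdhac2 was higher in the PV groups, between 46.3 ± 2.0 and 47.9 ± 2.0 CPM per kilobase, than in the Camk2a groups, between 17.5 ± 2.1 and 20.8 ± 2.2. Pcdhgc4 differed least, between 32.3 ± 3.7 and 37.2 ± 3.7 CPM per kilobase in the PV groups and between 43.6 ± 5.1 and 49.3 ± 5.1 in the Camk2a groups. The highest member was therefore Pcdhac2 in every PV group and, by the group mean, Pcdhgc5 in every Camk2a group. Annotated coding transcripts as short as 444 bases for Pcdhgc5 and 2272 bases for Pcdhgc4 exist beside the longest ones used for these levels, so the order among the leading members depends on which transcript is present.

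**Figure D1:**
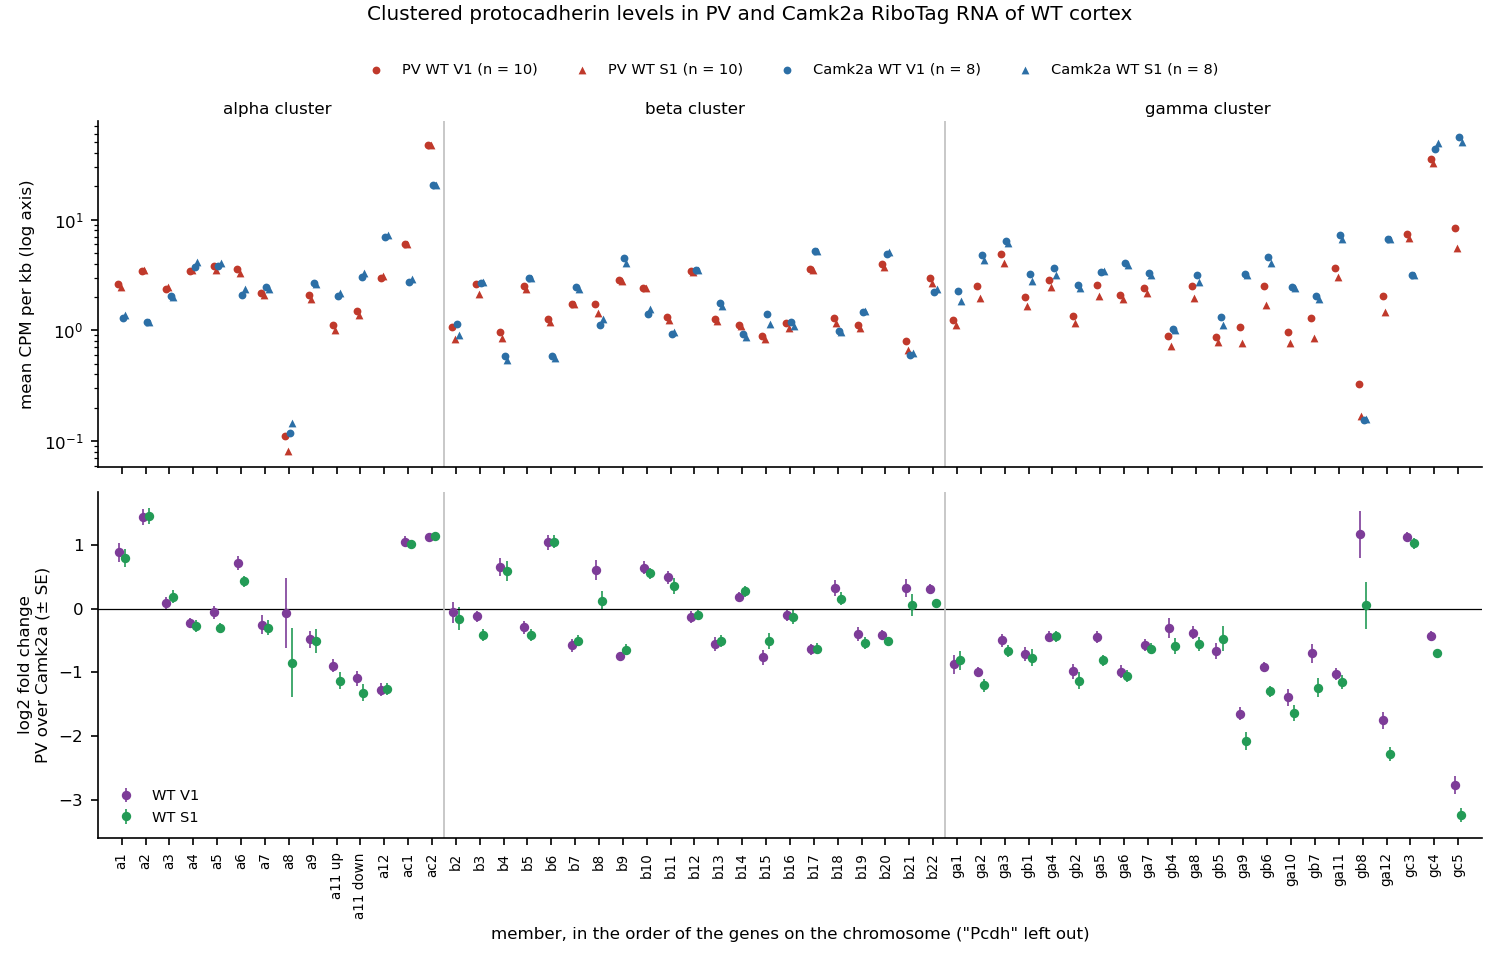
Levels of the 57 members in array order and their difference between cell classes. The upper panel plots mean CPM per kilobase on a log axis in the 4 WT groups, and the lower panel the log2 fold change of PV over Camk2a in WT V1 and WT S1 with its standard error; the C-type members Pcdhgc4 and Pcdhac2 stand above all variable members in every group and Pcdhgc5 does so in Camk2a, and the gamma members lie below the zero line except Pcdhgc3 and the pseudogene Pcdhgb8.

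Summed over an array, alpha RNA was higher and gamma RNA lower in PV than in Camk2a libraries. The alpha sum averaged 468 ± 23.2 CPM in PV WT V1 and 305 ± 24.8 CPM in Camk2a WT V1 (SD, n = 10 and 8), and 463 ± 19.1 CPM in PV WT S1 and 314 ± 17.1 CPM in Camk2a WT S1. The higher alpha sum lay in the C-type pair, at 312 ± 16.5 CPM in PV WT V1 and 137 ± 15.0 CPM in Camk2a WT V1. The variable alpha members alone averaged lower in PV. In WT they had 156 against 167 CPM in V1 and 150 against 176 CPM in S1. In KO they had 171 against 188 CPM in V1 and 163 against 211 CPM in S1. These sums overlapped between classes in V1 but not in S1. The gamma sum averaged 434 ± 41.0 CPM in PV WT V1 and 812 ± 49.1 CPM in Camk2a WT V1, and 366 ± 22.0 CPM in PV WT S1 and 791 ± 58.0 CPM in Camk2a WT S1. Over all groups, alpha sums lay between 425 and 507 CPM in PV libraries and between 272 and 398 CPM in Camk2a libraries, and gamma sums between 328 and 496 CPM in PV libraries and between 686 and 1137 CPM in Camk2a libraries, so neither overlapped. Beta sums were closer, 136 to 193 CPM in PV libraries and 156 to 258 CPM in Camk2a libraries. They overlapped between classes in KO V1, WT V1 and WT S1. In KO S1 they did not, with means of 160.8 CPM in PV and 206.5 CPM in Camk2a libraries. In these bulk samples, fewer cells that use a member and less RNA per cell cannot be told apart.

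**Figure D2:**
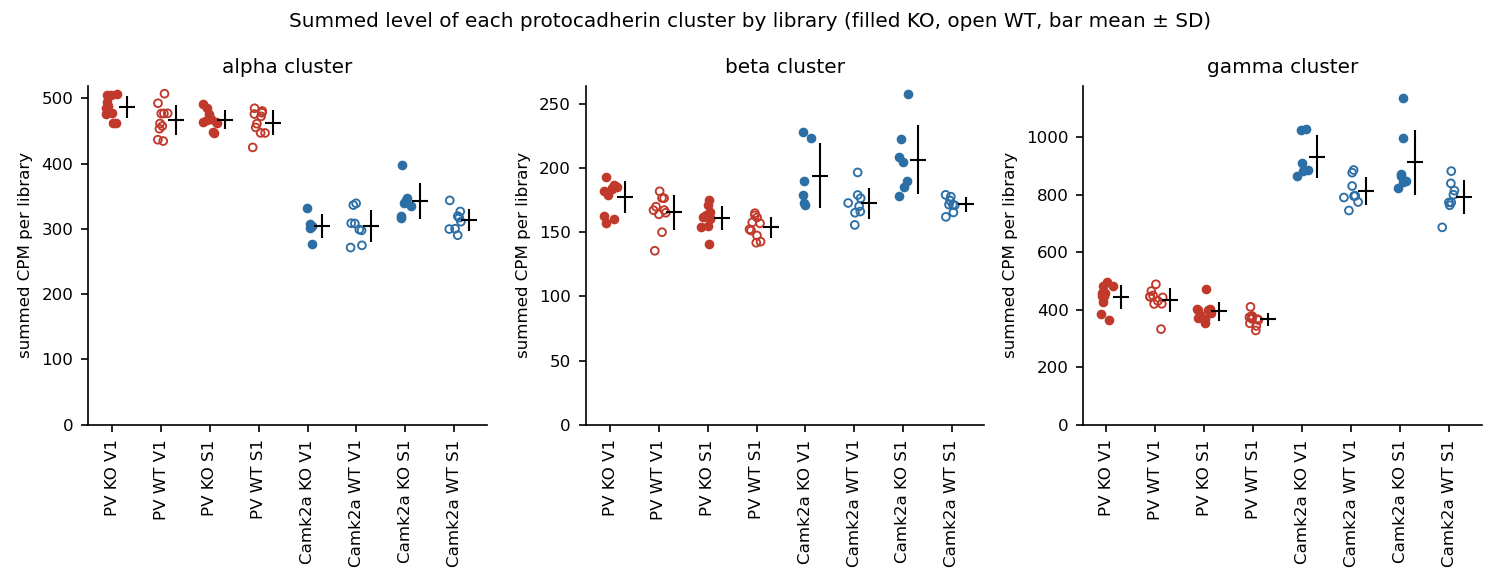
Summed CPM of the alpha, beta and gamma members in each library, by group. Points are libraries (filled KO, open WT) and bars give the mean and SD; the alpha sums of PV libraries lie above, and their gamma sums below, those of every Camk2a library.

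Member by member, the comparison of PV with Camk2a ribosomes asked which members are enriched in which class, and it was made separately in each genotype and area with edgeR's quasi-likelihood test, calling a gene at a Benjamini-Hochberg adjusted p under 0.05. In KO V1, 46 of 57 members were called, where 74.3% of all tested genes were; 49 were called in KO S1 (77.7% of all genes), 48 in WT V1 (77.3%) and 47 in WT S1 (77.2%). These shares of members are close to those of all genes or slightly above, so the number of calls is not particular to the protocadherins. The direction was uneven between arrays. In gamma, 20 of 22 members were lower in PV in KO V1, 20 in KO S1, 19 in WT V1 and 20 in WT S1, where lower calls made up 35.9%, 37.9%, 37.5% and 38.1% of all tested genes and higher calls 38.3%, 39.8%, 39.8% and 39.1%. The median log2 fold change of gamma members was -1.11 in KO V1, -1.20 in KO S1, -0.70 in WT V1 and -0.81 in WT S1, while the median of all tested genes was between 0.02 and 0.04.

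The gamma C-type members went different ways. Pcdhgc5 had 20.5, 41.6 and 54.9 CPM (lowest, median and highest) in PV WT V1, against 219, 255 and 314 CPM in Camk2a WT V1. In WT S1 it had 20.5, 26.5 and 30.2 CPM in PV libraries, against 178, 238 and 318 CPM in Camk2a libraries. The ranges were far apart in both areas. Its log2 fold change was -3.10 and -3.36 in KO V1 and KO S1, and -2.76 ± 0.14 in WT V1 and -3.23 ± 0.11 in WT S1 (standard error, adjusted p = 1.3e-12 and 9.0e-16 by edgeR's quasi-likelihood test). The excitatory neuron markers, which PV libraries carried at a low level, had median log2 fold changes of -3.43 in WT V1 and -3.84 in WT S1, of a size like that of Pcdhgc5; how much of the Pcdhgc5 RNA in PV libraries came from excitatory cells was not tested.

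Pcdhgc3, which in the mouse promotes dendrite branching, was the gamma member higher in PV in every comparison. It had 28.4, 33.9 and 39.2 CPM in PV WT V1, against 12.8, 14.7 and 17.3 CPM in Camk2a WT V1, with no overlap. Its log2 fold change was 0.93 in KO V1, 0.89 in KO S1, 1.13 in WT V1 and 1.03 in WT S1, called in each. Pcdhgc4 was modestly lower in PV, by log2 fold changes between -0.37 in KO V1 and -0.70 in WT S1, all called. Astrocyte markers were also higher in PV libraries, with 8 or 9 of 12 called in each comparison and a median log2 fold change between 1.27 and 1.77, and the medians of the other glial and vascular lists were also positive. The summed astrocyte level ran the other way, at 689 ± 113 CPM in PV WT V1 and 865 ± 84.9 CPM in Camk2a WT V1; the astrocyte genes Aldh1l1 and Slc1a2 were called lower in PV. The part of glial RNA in the members' differences was not tested.

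Among the variable gamma members the lower level in PV was most marked for Pcdhga9, Pcdhga10 and Pcdhga12, which lie toward the 3′ end of the variable genes. Pcdhga9 had 3.71, 4.82 and 6.75 CPM in PV WT V1, against 12.3, 15.0 and 19.1 CPM in Camk2a WT V1, and its log2 fold changes were -2.33 in KO V1, -2.62 in KO S1, -1.64 in WT V1 and -2.07 in WT S1. Pcdhga12 gave -2.21, -2.57, -1.75 and -2.27 in the same order, and Pcdhga10 -1.79, -1.99, -1.39 and -1.64. Nearer the 5′ end, Pcdhga3 gave -0.58, -0.82, -0.50 and -0.67, with ranges that overlapped. In KO V1 and KO S1 it was the least lowered of the 12 Pcdhga members. All 12 were called lower in PV in each comparison. Whether the size of the difference follows position in the array was not tested. Pcdhgb8 was called higher in PV in WT V1, by 1.16 ± 0.37, but its highest library had 3.64 CPM and its lowest 0.267, and it was not called in the other comparisons.

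In the alpha array PV was higher for Pcdha1, Pcdha2, Pcdha6, Pcdhac1 and Pcdhac2 and lower for Pcdha9, both Pcdha11 genes and Pcdha12, in all 4 comparisons. Pcdhac2 had 253, 278 and 311 CPM in PV WT V1, against 101, 120.0 and 147 CPM in Camk2a WT V1, and its log2 fold change was 1.33 in KO V1, 1.16 in KO S1, 1.11 in WT V1 and 1.14 in WT S1. Pcdhac1 gave 1.20, 0.54, 1.05 and 1.01. The 5′ member Pcdha2 had 15.9, 18.6 and 22.5 CPM in PV WT V1, against 4.39, 6.28 and 8.44 CPM in Camk2a WT V1, and rose by 1.44 ± 0.12 on the log2 scale. Pcdha12, at the other end of the variable genes, had 12.6, 16.3 and 20.2 CPM in PV WT V1, against 28.0, 36.7 and 47.3 CPM in Camk2a WT V1, a log2 fold change of -1.27 ± 0.10. Neither member's groups overlapped. The C-type pair made up 66.7% ± 1.0 of the alpha sum in PV WT V1 and 45.0% ± 2.9 in Camk2a WT V1, as shares of counts and not per length.

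The beta array was split. Of 21 beta members, 5 were higher and 10 lower in PV in KO V1, 2 and 12 in KO S1, 9 and 8 in WT V1 and 5 and 9 in WT S1. Pcdhb6 was higher in PV in each, with 3.73, 4.69 and 5.53 CPM in PV WT V1 against 1.60, 2.10 and 2.76 CPM in Camk2a WT V1 and a log2 fold change of 1.04 ± 0.12. Pcdhb9 was lower in each, with 6.80, 8.86 and 9.91 CPM in PV WT V1 against 12.6, 13.6 and 14.8 CPM in Camk2a WT V1 and a log2 fold change of -0.74 ± 0.07. Pcdhb17 gave -0.62, -0.82, -0.64 and -0.63 in KO V1, KO S1, WT V1 and WT S1, and Pcdhb13 -1.03, -1.18, -0.56 and -0.51. Pcdhb10 was higher in each, with 5.74, 6.69 and 8.59 CPM in PV WT V1 against 3.29, 3.96 and 4.97 CPM in Camk2a WT V1. Both directions therefore occur among genes that lie next to each other and share no exon.

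The comparison of KO with WT asked what loss of Fmr1 does to these members within a class. In Camk2a neurons, with the V1 and S1 counts of an animal added so that each of 6 KO and 7 WT animals counted once, 11 of 57 members were called higher in KO and none lower, where 4.06% of all tested genes were called, 2% higher and 2.06% lower. The 11 were Pcdhga4, Pcdhga7, Pcdhga8, Pcdhga9, Pcdhga10, Pcdhgb5, Pcdhgb6, Pcdhgb7 and Pcdhgb8 of the gamma array, upstream Pcdha11 of the alpha array and Pcdhb13 of the beta array. The fold change was positive in 12 of 14 alpha, 21 of 21 beta and 21 of 22 gamma members. Its median was 0.13, 0.26 and 0.40 on the log2 scale in these arrays and 0.0027 over all tested genes. The members share animals and, within the alpha and gamma arrays, exons, so they are not independent of each other.

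Pcdhga9 had 20.03, 25.6 and 27.4 CPM (lowest, median and highest) in Camk2a KO animals, against 12.2, 16.3 and 18.7 CPM in Camk2a WT animals. The groups did not overlap. Its log2 fold change was 0.68 ± 0.10 (adjusted p = 0.0038 by edgeR's quasi-likelihood test). Pcdhgb7 had 13.1, 13.9 and 18.3 CPM in KO, against 7.67, 9.83 and 11.4 CPM in WT, also without overlap, and a log2 fold change of 0.67 ± 0.12 (adjusted p = 0.0088, same test). Pcdhb13, a beta member with no annotated exon shared with another, had 7.85, 9.49 and 12.5 CPM in KO, against 5.86, 6.31 and 7.34 CPM in WT, without overlap, and a log2 fold change of 0.58 ± 0.11 (adjusted p = 0.013, same test). Each of these members was higher in all 6 KO animals than in any of the 7 WT animals.

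Pcdhgb6 had 24.37, 28.4 and 37.2 CPM in Camk2a KO animals, against 16.9, 19.9 and 24.35 CPM in Camk2a WT animals, and rose by 0.54 ± 0.12 on the log2 scale; its lowest KO and highest WT animals nearly met. Pcdhga7 had 19.9, 21.1 and 28.3 CPM in KO, against 13.04, 15.7 and 18.4 CPM in WT, and rose by 0.51 ± 0.10. Pcdhga8 had 15.2, 20.8 and 27.7 CPM in KO, against 10.6, 14.8 and 15.5 CPM in WT, and rose by 0.61 ± 0.14. Of these, only Pcdhga8 overlapped between the genotypes, by its lowest KO animal. Upstream Pcdha11 had 11.3, 15.7 and 17.8 CPM in KO, against 10.2, 10.8 and 13.2 CPM in WT, and rose by 0.47 ± 0.10, with overlap. Pcdhgb5 rose by 0.65 ± 0.14, Pcdhga10 by 0.44 ± 0.11 and Pcdhga4 by 0.39 ± 0.09, each with overlap. The pseudogene Pcdhgb8 rose by 0.68 ± 0.16 at a very low level, its highest library of either class holding 132 counts.

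**Figure D3:**
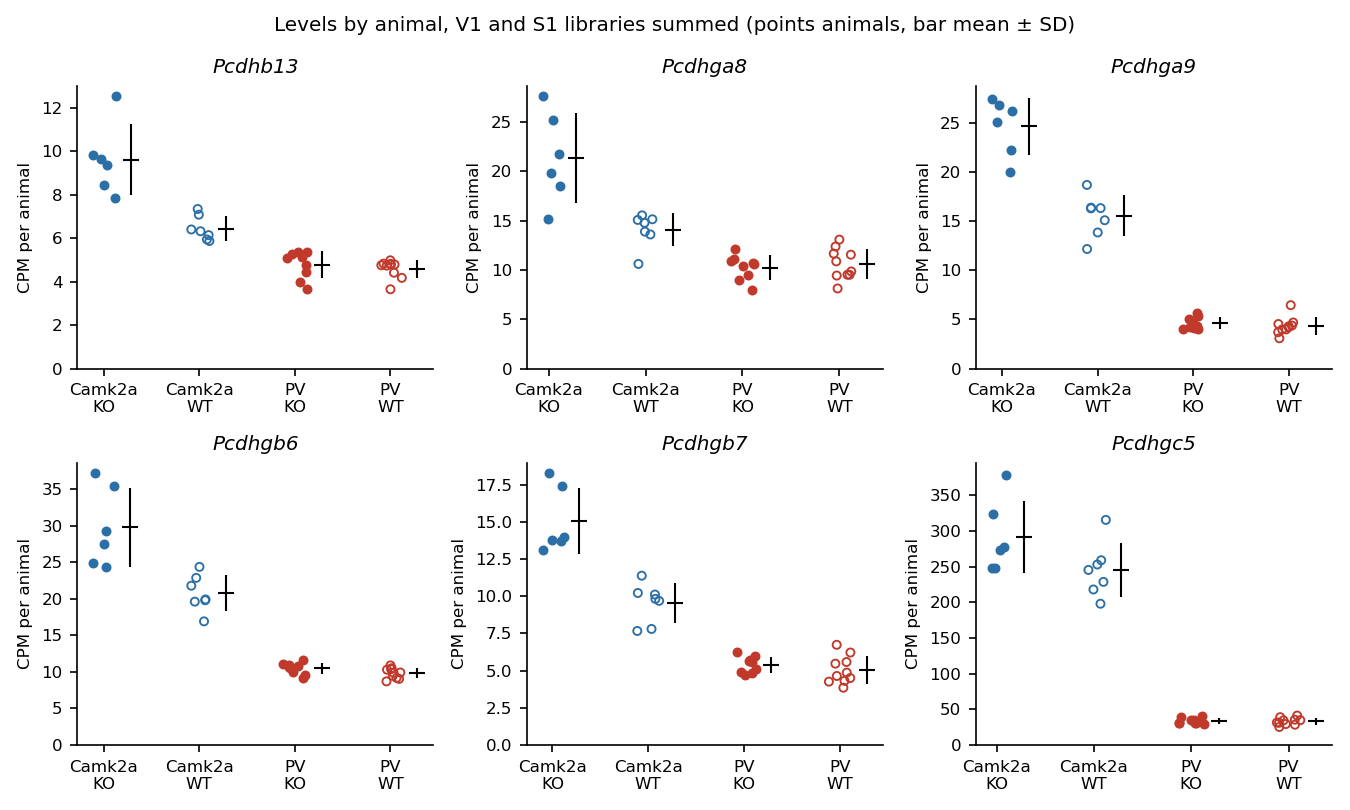
CPM of 6 members in each animal with both areas, by class and genotype. Points are animals and bars the mean and SD; in Camk2a animals the KO points of Pcdhb13, Pcdhga9, Pcdhgb6 and Pcdhgb7 lie above every WT point, and in PV animals the genotypes overlap for all 6 members.

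The C-type members did not pass this test. Pcdhgc5, the most abundant of them in Camk2a neurons per kilobase, averaged 292 ± 50.8 CPM in KO and 245 ± 37.5 CPM in WT, a log2 fold change of 0.25 ± 0.13. Pcdhac2 averaged 108 ± 6.9 CPM in KO and 124 ± 12.5 CPM in WT, and its log2 fold change was -0.19 ± 0.07 (adjusted p = 0.11 by edgeR's quasi-likelihood test). Pcdhac1, Pcdhgc3 and Pcdhgc4 gave 0.13, 0.08 and -0.06. As shares of counts, the C-type pair made up 38.3% ± 2.5 of the alpha sum in Camk2a KO V1 and 45.0% ± 2.9 in Camk2a WT V1, and 38.6% ± 1.6 in Camk2a KO S1 and 43.9% ± 3.5 in Camk2a WT S1. The variable gamma members summed to 397 ± 51.6 CPM in Camk2a KO V1 and 312 ± 28.4 CPM in Camk2a WT V1, and to 396 ± 64.6 CPM in Camk2a KO S1 and 291 ± 31.9 CPM in Camk2a WT S1.

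Taken area by area, 6 members were called higher in Camk2a KO V1, where 1.4% of all genes were called, 0.62% higher and 0.784% lower, and 12 in Camk2a KO S1, where 4.09% were called, 1.99% higher and 2.09% lower; none was called lower in either. In V1 these were Pcdhga8, Pcdhga9, Pcdhga10, Pcdhgb5, Pcdhgb7 and upstream Pcdha11. In S1 they included Pcdhga9 at 0.74 ± 0.12, Pcdhgb6 at 0.66 ± 0.12, Pcdhgb7 at 0.70 ± 0.13, Pcdhga7 at 0.59 ± 0.12, Pcdhb13 at 0.62 ± 0.13, Pcdhb6 at 0.50 ± 0.12, Pcdhb19 at 0.39 ± 0.10 and Pcdha12 at 0.42 ± 0.11. The V1 and S1 libraries are mostly of the same animals, so the areas are not independent of each other. Without C3, C18 and C19, 1 of the 6 V1 calls was left (Pcdhga9) and 8 members were called in S1. Leaving out a single animal gave between 2 calls (without C4, C5, C7, C15, C16 or C19) and 10 (without C6) in V1, and between 5 (without C7 or C16) and 22 (without C24) in S1. The shares of all genes called in these reduced fits are not given here.

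**Figure D4:**
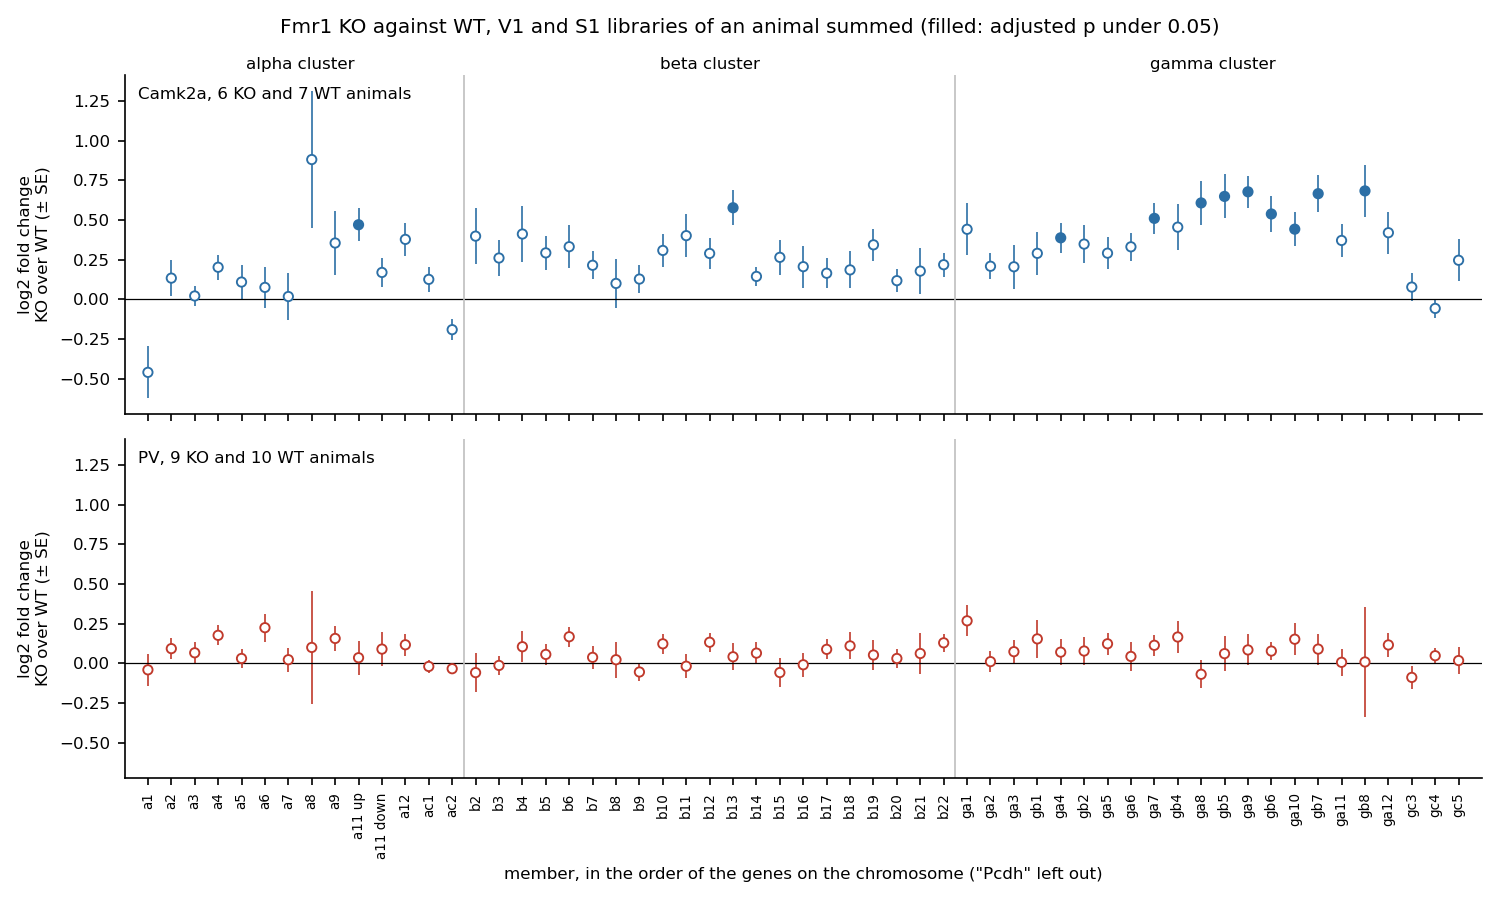
Log2 fold change of KO over WT for the 57 members in array order, both areas of an animal summed, with Camk2a above and PV below. Error bars are standard errors and filled points were called; 11 Camk2a points are filled, all above zero, and no PV point is.

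Several things differed between the Camk2a genotypes beside the members. PV interneuron markers had a median log2 fold change of -0.89 in KO over WT, with 1 of 12 positive, and oligodendrocyte markers summed to 272 ± 45.7 CPM in KO V1 and 352 ± 50.3 CPM in WT V1. Without C3, C18 and C19, the animals with most PV interneuron RNA, the PV marker median was -0.01, but the summed PV markers still lay between 649 and 848 CPM in the other KO V1 libraries and between 865 and 1044 CPM in the other WT V1 libraries, and between 932 and 1211 CPM in KO S1 and between 706 and 1412 CPM in WT S1. Their part in the result was not tested. Without these animals the median of the members was 0.31, against 0.29 with them, while the count of called members was 5 (Pcdhga9, Pcdhgb6, Pcdhgb7, Pcdhb13 and upstream Pcdha11) in place of 11. With a score of astrocyte, oligodendrocyte and microglia markers (the glial score) as covariate 8 members were called, with Pcdha1 and Pcdhac2 now called lower at -0.63 and -0.25. Leaving out any single animal gave between 4 and 19 calls: 4 without the KO animal C7 or the WT animal C15, C16 or C23, and 19 without C24. A limma-voom fit with the animal as a block, which differs from the main test in tool as well as in keeping V1 and S1 apart, called 23 members, 1 of them lower (Pcdha1 at -0.49), and DESeq2 without a block called 20. The shares of all genes called under these alternatives are not given here. Pcdhga9, Pcdhgb7 and Pcdhb13 were called under each of these alternatives.

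In PV neurons no member was called between KO and WT in V1, in S1 or with both areas of 9 KO and 10 WT animals added, by edgeR's quasi-likelihood test or by DESeq2, where 0.191%, 0.77% and 1.36% of all tested genes were called by edgeR (0.0123%, 0.227% and 0.315% higher). At an unadjusted p under 0.05 there were 4, 5 and 6 of 57 members. The share of all genes at that threshold is not given here, so these counts cannot be judged against it. With both areas added, the smallest p was that of Pcdha4 at 0.18 ± 0.06 (adjusted p = 0.22 by edgeR's quasi-likelihood test). In S1 alone the smallest was that of Pcdha6 at 0.24 ± 0.07 (adjusted p = 0.13, same test). The fold change with both areas added was positive in 46 of 57 members, 20 of 22 in gamma, with a median of 0.06 on the log2 scale. The C-type pair made up 64.9% ± 1.3 of the alpha sum in PV KO V1 and 66.7% ± 1.0 in PV WT V1, and 65.2% ± 1.5 in PV KO S1 and 67.5% ± 1.4 in PV WT S1. Pcdhga9 had 3.98, 4.35 and 5.63 CPM in PV KO animals, against 3.08, 4.25 and 6.44 CPM in PV WT animals, and the groups overlapped. The C-type members lay between -0.09 for Pcdhgc3 and 0.05 for Pcdhgc4.

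The difference between the classes in the effect of genotype was tested in one fit of all 32 animals with both areas. It was called for 4 members, all more positive in Camk2a, where 0.325% of all tested genes were called in that direction and 0.832% in either. The log2 difference was 0.67 ± 0.16 for Pcdhga8, 0.60 ± 0.14 for Pcdhga9, 0.54 ± 0.14 for Pcdhb13 and 0.45 ± 0.12 for Pcdhgb6 (adjusted p = 0.035, 0.035, 0.050 and 0.048 by edgeR's quasi-likelihood test). Pcdhgb7 gave 0.58 ± 0.16 and missed the threshold. These calls moved with the animals used: without P9, P22 and P24 there was none, without C3, C18 and C19 there was 1 (Pcdhgb6), and with the glial score as covariate 1 (Pcdhga9), while without C24 there were 7. The shares of all genes called in these alternative fits of the difference are not given here.

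The comparison of V1 with S1 asked whether members differ between the cortical areas of a class. Its main fit had no term for the animal and so treated the V1 and S1 libraries of an animal as independent. A fit with the animal as a block was an alternative. In PV WT, 10 members (17.5%) were called, all higher in V1, where 20.6% of all tested genes were called, 10.7% higher and 9.95% lower, so the share of members called was near that of all genes. Of the 10, 9 were gamma members (Pcdhga2, Pcdhga3, Pcdhga5, Pcdhga8, Pcdhga9, Pcdhga12, Pcdhgb6, Pcdhgb7 and Pcdhgc5) and the other was Pcdhb3. All 22 gamma members had a positive fold change, with a median of 0.26 on the log2 scale, against 0.04 in the alpha array, 0.06 in the beta array and 0.0070 over all tested genes. Pcdhgb6 had 8.90, 11.7 and 14.6 CPM in PV WT V1, against 6.53, 8.00 and 9.01 CPM in PV WT S1, a log2 fold change of 0.51 ± 0.08 (adjusted p = 0.0054 by edgeR's quasi-likelihood test). Pcdhgc5 had 20.5, 41.6 and 54.9 CPM in V1, against 20.5, 26.5 and 30.2 CPM in S1, a log2 fold change of 0.56 ± 0.12. The ranges overlapped for both, and the lowest V1 library of Pcdhgc5 lay at the bottom of the S1 range.

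Beside these, 6 of 12 excitatory markers and 8 of 12 astrocyte markers were called higher in PV WT V1 than in S1. Excitatory markers summed to 1801 ± 413 CPM in V1 and 1388 ± 103 CPM in S1, and astrocyte markers to 689 ± 113 CPM in V1 and 544 ± 40.3 CPM in S1. The 9 gamma members that were higher in V1 were also called lower in PV than in Camk2a in WT V1, with log2 fold changes between -0.38 and -2.76. As 19 of all 22 gamma members were called lower there, and the PV WT V1 libraries enter both comparisons, this overlap is not separate evidence. The part of excitatory RNA in the area difference was not tested. With the animal as a block 12 members were called, and without P9, P22 and P24 there were 13. The shares of all genes called in these fits are not given here. P9, P22 and P24 were picked by their reversed or small gap between V1 and S1, so leaving them out favours area calls.

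In PV KO no member was called between V1 and S1 by edgeR's quasi-likelihood test, where 7.56% of all genes were called. At an unadjusted p under 0.05 there were 10 members (the share of all genes at that threshold is not given here), and DESeq2 called 3. Pcdhgc5 had 25.9, 40.2 and 50.8 CPM in PV KO V1, against 21.0, 29.3 and 36.8 CPM in PV KO S1, a log2 fold change of 0.36 ± 0.12 (adjusted p = 0.054 by the same test). Without P9, P22 and P24, 13 members were called, all higher in V1, among them Pcdhgc5 at 0.54 and Pcdhgb7 at 0.53. As these animals were picked by their reversed or small gap between V1 and S1, that fit favours area calls. It is not separate evidence, and the share of all genes called in it is not given here. With all animals, marker lists of other cells also had positive median log2 fold changes in PV KO V1 over S1, of 0.37 for astrocytes (3 of 12 called higher and 1 lower), 0.36 for microglia (3 of 11 called higher), 0.43 for oligodendrocyte precursors (1 of 6) and 0.44 for vascular cells (1 of 11); their part in the area difference was not tested. The other C-type members gave log2 fold changes between 0.02 for Pcdhac2 and 0.09 for Pcdhgc4 in PV KO, and between -0.04 for Pcdhac1 and 0.11 for Pcdhgc4 in PV WT, none called. Whether the area effect differs between the genotypes was not tested.

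In Camk2a KO, Pcdhac1 was the only member called in the main fit, lower in V1, where 13.1% of all genes were called, 6.42% higher and 6.65% lower. It had 10.2, 14.4 and 15.8 CPM in Camk2a KO V1, against 17.3, 19.4 and 24.5 CPM in Camk2a KO S1. The areas did not overlap, and the log2 fold change was -0.55 ± 0.11 (adjusted p = 0.0041 by edgeR's quasi-likelihood test). Pcdhac2, Pcdhgc3, Pcdhgc4 and Pcdhgc5 gave -0.13, 0.03, -0.04 and 0.11 there, none called. With the animal as a block 7 members were called, all lower in V1: Pcdha4, Pcdhac1, Pcdhb5, Pcdhb8, Pcdhb20, Pcdhb21 and Pcdhb22, by 0.21 to 0.59 on the log2 scale. The share of all genes called in that fit is not given here. PV interneuron markers were also lower in these V1 libraries, with a median of -0.53 and 0 of 12 positive. In WT, Pcdhac1 averaged 14.8 ± 2.5 CPM in V1 and 15.8 ± 2.4 CPM in S1, and no member was called, where 0.359% of all genes were. At an unadjusted p under 0.05 there were 5 members (the share of all genes at that threshold is not given here), and DESeq2 called 1. Without C24, 7 members were called in WT, with Pcdhb9, Pcdhb15, Pcdhga1, Pcdhga4, Pcdhga8 and Pcdhgb5 higher and Pcdhgc4 lower in V1. C24 was picked by its reversed area score, so leaving it out favours area calls. The genes of that score include the 10 members called in PV WT. The share of all genes called without C24 is not given here.

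**Figure D5:**
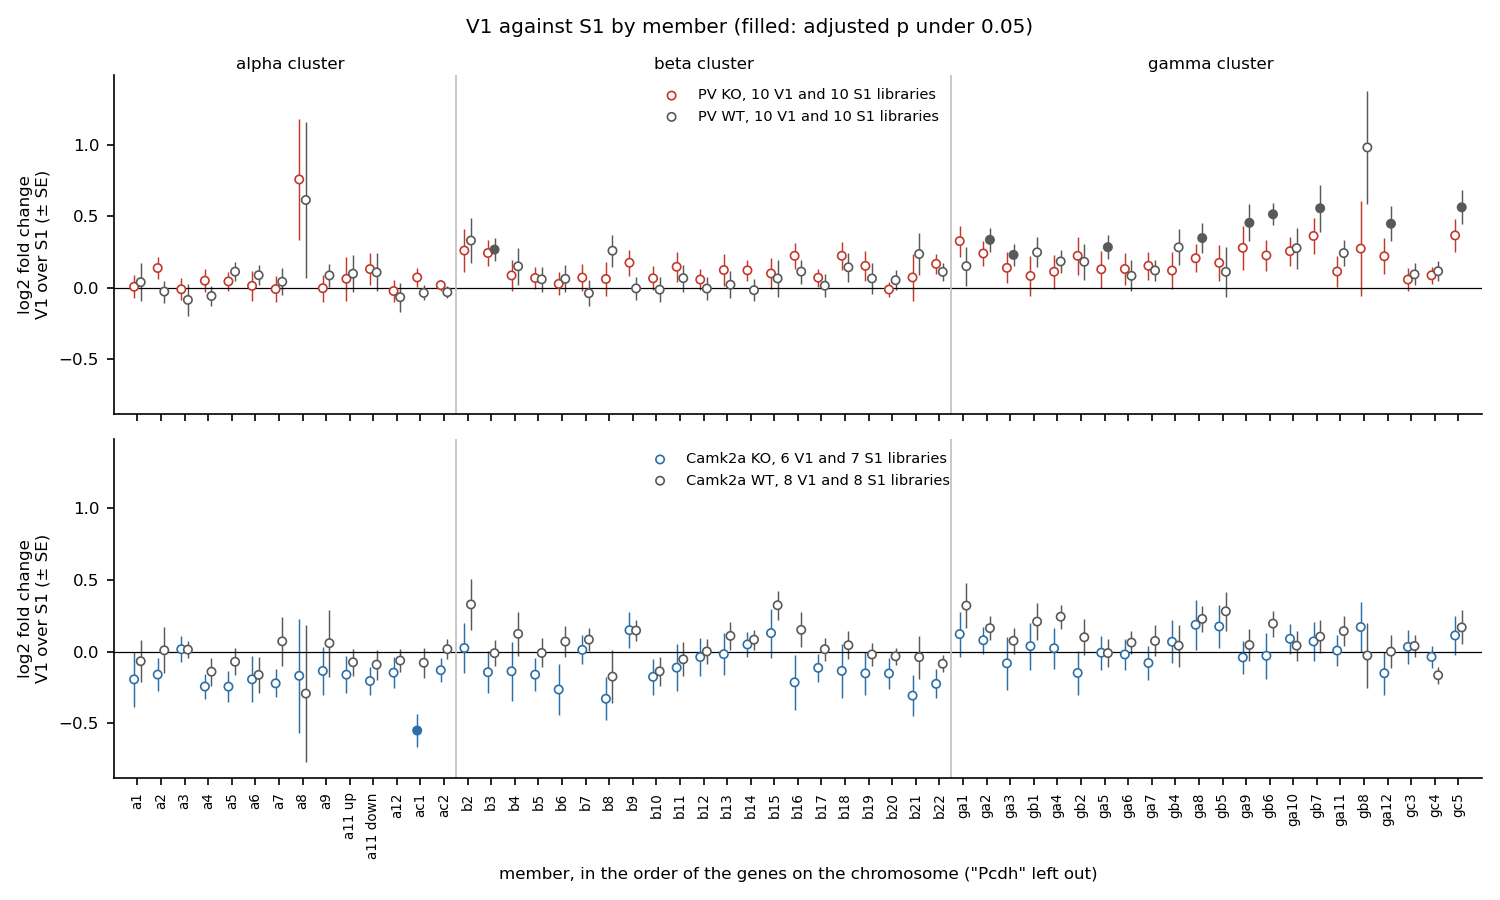
Log2 fold change of V1 over S1 for the 57 members in array order, with PV above and Camk2a below, KO coloured and WT grey. Error bars are standard errors; the gamma members lie above zero in both PV genotypes, and Pcdhac1 lies lowest among the C-type members in Camk2a KO at -0.55.

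Within groups, gamma members varied together more than alpha members did. After the mean of each group was removed, the median Pearson correlation over the 69 libraries was 0.42 among the 231 pairs of gamma members, 0.32 among the 210 pairs of beta members, 0.30 between beta and gamma members and 0.05 among the 91 pairs of alpha members. These are descriptions: the libraries share animals, and gamma members share annotated exons, while beta members do not, apart from the overlap of Pcdhb21 and Pcdhb22. An animal's departure from its group in V1 correlated with its departure in S1 over 32 animals with values between -0.15 for Pcdhgb7 and 0.64 for Pcdha9. The coefficient of variation between libraries of a group, as a median over the 8 groups, was smallest for Pcdhac2 at 5.86% and reached 40.7% for Pcdhgb8 and 66.1% for Pcdha8, the least abundant members.

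Genes that act on or with the arrays were described for comparison. Of 19 CTCF, cohesin and silencing factors, 3 were called higher and 9 lower in PV in KO V1, 2 and 14 in KO S1, 4 and 8 in WT V1 and 3 and 9 in WT S1. Of all tested genes, 74.3% to 77.7% were called in these comparisons, 38.3% to 39.8% higher and 35.9% to 38.1% lower. Ctcf was lower in PV in all 4 class comparisons, by log2 fold changes between -0.71 in WT V1 and -0.85 in KO S1, and Rad21, a cohesin subunit, by -0.36 in WT S1 to -0.61 in KO S1. Smc1a, another cohesin subunit, was called higher in PV in WT V1 at 0.35 and in WT S1 at 0.27 and not called in KO. Rest, a repressor of neuronal genes, was higher in PV by 1.55 in WT V1 to 2.12 in KO S1. Its level was low, with group means of 2.09 to 2.42 CPM in PV and 0.47 to 0.70 CPM in Camk2a. Microglia markers also summed higher in PV, at 51.9 CPM in PV WT V1 and 18.2 CPM in Camk2a WT V1. The part of RNA from other cells in the Rest difference was not tested. Between genotypes, with both areas added, 1 of 19 was called in Camk2a (Mau2, a cohesin loader, at 0.18 ± 0.05) and none in PV. Of all tested genes, 4.06% were called in Camk2a and 1.36% in PV. Of 21 binding partners and processing enzymes, 18 or 19 were lower in PV, Ptk2b, Wasf1 and Marcks among them, and Ret and Psen2 were higher; between genotypes Ret, a receptor kinase that binds alpha and gamma protocadherins, was called lower in PV KO at -0.31 ± 0.05, and none was called in Camk2a. Of 11 non-clustered protocadherins, Pcdh20 was called higher at 0.69 ± 0.15 and Pcdh11x lower at -0.45 ± 0.11 in Camk2a KO. In Camk2a KO, 5 of these 11 were higher in V1 than in S1, led by Pcdh8 at 1.20 and Pcdh19 at 1.01, and 1 was lower, Pcdh7 at -0.52, where 6.42% of all genes were called higher.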

How the data were processed

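The authors deposited estimated counts of reads per gene for each immunoprecipitated library, without normalization. The submitters' processing notes name STAR, Salmon, limma and mm10; roles, versions and annotation: not given in the sources used here. Values were rounded to whole numbers. Symbols, positions and transcript lengths came from GENCODE M21. CPM scales rounded counts by the library total. Genes were filtered with filterByExpr, scaled by TMM and tested with edgeR 4.0.16 (robust quasi-likelihood, sex as covariate), with Benjamini-Hochberg adjustment over all genes tested and a threshold of 0.05; TMM makes fold changes differ slightly from ratios of CPM. The test was tried on simulated data with known changes. Alternatives were DESeq2 1.42.0, limma-voom 3.58.1, other scaling, no filter, no sex term, a glial score, the animal block and leaving animals out. Library names carry animal codes, so V1 and S1 libraries of an animal pair. Their deviations from the group mean, over all genes with a mean count of at least 50 and not the members alone, were correlated within each animal. The medians were 0.49 (Camk2a KO), 0.45 (Camk2a WT), 0.14 (PV KO) and 0.44 (PV WT). No pair of libraries was a duplicate (smallest chi-square per degree of freedom 4.82). The kit is not stated to mark strand and uses no molecular identifiers. Members, lists and tests were chosen with earlier results of these data known. Named in a comparison were the C-type members and up to 5 called members per array and direction by p (with no call, the member of smallest p in each direction); for levels, the 3 highest and 2 lowest of each array; others were named after their values were seen.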

Additional observations from a re-analysis of the deposited data

Results flagged for a closer look

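In groups of 6 to 10 libraries, 184 sets of values were examined for a single library standing apart by Dixon's criterion, and 13 did; chance flags about 1 in 20. The KO animal C4 gave 5 of them in Camk2a KO S1: the alpha sum at 398 CPM (others 316 to 347), Pcdhgc4 at 196 CPM (others 221 to 233), Pcdhgc5 at 400.2 CPM (others 242 to 309), Pcdha12 at 71.9 CPM (others 45.8 to 55.8) and Pcdhga7 at 31.6 CPM (others 19.6 to 24.2). In PV KO S1 the gamma sum of P9 was 473 CPM and the Pcdhgc3 level of P11 40.8 CPM, both high. In PV KO V1 the Pcdhga10 level of P23 was 7.31 CPM, also high. In PV WT V1 the gamma sum of P22 was 333 CPM, below the others at 420.1 to 488. In PV WT S1, Pcdhga9 in P1 at 6.17 CPM and Pcdhga10 in P18 at 5.51 CPM were high. In Camk2a WT, Pcdhga7 in S1 of C18 at 11.2 CPM and Pcdhga8 in V1 of C16 at 11.03 CPM were low. The genotype effect differed between classes, by the test of the difference, for Pcdhb13 (0.54 on the log2 scale), Pcdhga8 (0.67), Pcdhga9 (0.60) and Pcdhgb6 (0.45), each more positive in Camk2a.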

How the results depend on the processing

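For single named members, 1939 values were recomputed under alternatives: 1786 kept direction and side of the threshold, 125 lost a call, 13 gained one and 15 changed sign, none of which had been called. The counts of members called in PV versus Camk2a stayed within 45 to 49 under every alternative run. Called members in KO versus WT of Camk2a V1 were 6, and 12 with DESeq2 and 1 without C3, C18 and C19; leaving out 1 animal gave 2 to 10. In Camk2a S1 they were 12, and 20 with DESeq2, 4 with the glial score and 22 without C24; leaving out 1 animal gave 5 to 22. With both areas they were 11, and 20 with DESeq2, 23 with limma-voom and the animal as replicate block, 5 without C3, C18 and C19 and 19 without C24; leaving out 1 animal gave 4 to 19. In KO versus WT of PV with both areas, leaving out 1 animal gave 0 throughout. The PV V1 and PV S1 fits were not repeated without single animals. The difference between classes was called for 4, and for 2 with no filter, 1 with the glial score, 1 without C3, C18 and C19, 7 without C24 and 0 without P9, P22 and P24. For V1 versus S1, PV KO had 0, and 1 with no sex term, 3 with DESeq2 and 13 without P9, P22 and P24; Camk2a KO had 1, and 7 with the animal block; Camk2a WT had 0, and 1 with DESeq2 and 7 without C24. The cause of these shifts was not tested. The shares of all genes called in these alternative fits are not given here. P9, P22, P24 and C24 were picked by their gap between V1 and S1, so area counts without them are not separate evidence. The block changed no call to the other direction. Sign changes, on the log2 scale, were as follows. In KO versus WT of Camk2a V1, Pcdhgc3 gave -0.040 without C7 and up to 0.15 without another animal, and Pcdhgc4 gave 0.0059 with the glial score and, without 1 animal, -0.11 to 0.017, positive without C1 (0.0022), C7 or C16 (0.0075). In PV with both areas, Pcdhgc5 gave -0.019 with the glial score and, without 1 animal, -0.021 to 0.067, negative without P6, P11, P22 or P27. With the glial score Pcdhgc3 gave -0.0017 in Camk2a with both areas. In V1 versus S1, the animal block gave -0.0014 for Pcdhac2 in PV KO and -0.0039 for Pcdhac2 and -0.026 for Pcdhgc3 in Camk2a WT, and Pcdha12 in PV KO gave 0.073 without P9, P22 and P24. Groups of 6 to 10 libraries limit what can be detected, and Pcdha8 and Pcdhgb8 had low counts.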
